A study of Caenorhabditis elegans with 2 samples.

Results

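Sex determination and dosage compensation genes of Caenorhabditis elegans were examined for binding of SEA-1, a T-box transcription factor that is itself part of the pathway. The set was given as a list of 41 gene names, all of which matched 1 of the 19985 protein-coding genes of the Ensembl annotation of assembly WBcel235. By role the 41 were 3 X signal elements (sex-1, ceh-39 and fox-1), 2 autosomal signal elements (sea-1 and sea-2), 23 genes of the switch and its downstream pathway, 9 condensin genes and 4 chromatin modifier genes. Each gene was given the highest signal value of any peak with its summit in the promoter window, the span that starts 1000 bp before any annotated 5′ end of its coding transcripts and stops 200 bp after it.

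Chromatin was precipitated with an anti-GFP antibody from whole early embryos (0 hour), collected by bleaching, and sequenced in 2 biological replicates that form the only group. Strain OP129 carried the integrated transgene wgIs129, in which sea-1 is fused to TY1, EGFP and 3xFLAG tags beside an unc-119(+) rescue marker, in the mutant background unc-119(ed3). The genotype lists no mutation at the strain's own sea-1 gene, the sex of the embryos was not recorded, and all cell types of the embryo were pooled. The values come from peak lists on ce11, the same assembly as WBcel235, and the number of reads behind them is unknown. The labels give no second condition, so each gene was set against all coding genes, and the replicates against each other, with no statistical test.

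In C. elegans, sex is set by the number of X chromosomes relative to sets of autosomes. X signal elements repress the switch gene xol-1 and autosomal signal elements, SEA-1 among them, activate it. Where xol-1 is active the embryo becomes male. Where it is silent, the sdc genes repress the male-determining gene her-1 and bring a condensin-based dosage compensation complex to both X chromosomes of the hermaphrodite. The tra and fem genes then relay the decision to the body, and the fog, mog, fbf, gld and nos genes set the choice of sperm or oocyte in the germ line.

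Peaks were common at all coding genes, so the rank of a peak says more than its presence. A peak of the series ranked list, made from both replicates, lay in the promoter window of 39 of the 41 genes, beside 69.8% of all coding genes. The ranked list of replicate 1 had a peak in the window of 32 of the 41, beside 59.5% of all coding genes, and that of replicate 2 in the window of 33, beside 58.7%. In 28 of the 41 there was one in both replicates, beside 45.3%. The signal value at the middle of all coding genes was 25.6, at percentile 90 it was 56.5, and at percentile 99 it was 124. Percentiles here run from the lowest value to the highest, and genes without a peak share percentile 15.1. The 41 genes had a median percentile of 77.6 (70.6 in replicate 1 and 74.0 in replicate 2), and 33 of them stood above the middle, beside 50% of all genes. Of the 41, 11 stood above percentile 90, beside 10% of all genes. Only 4 did so in both replicates, beside 4.91%: mog-5, mog-4, nos-3 and fox-1.

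**Figure D1:**
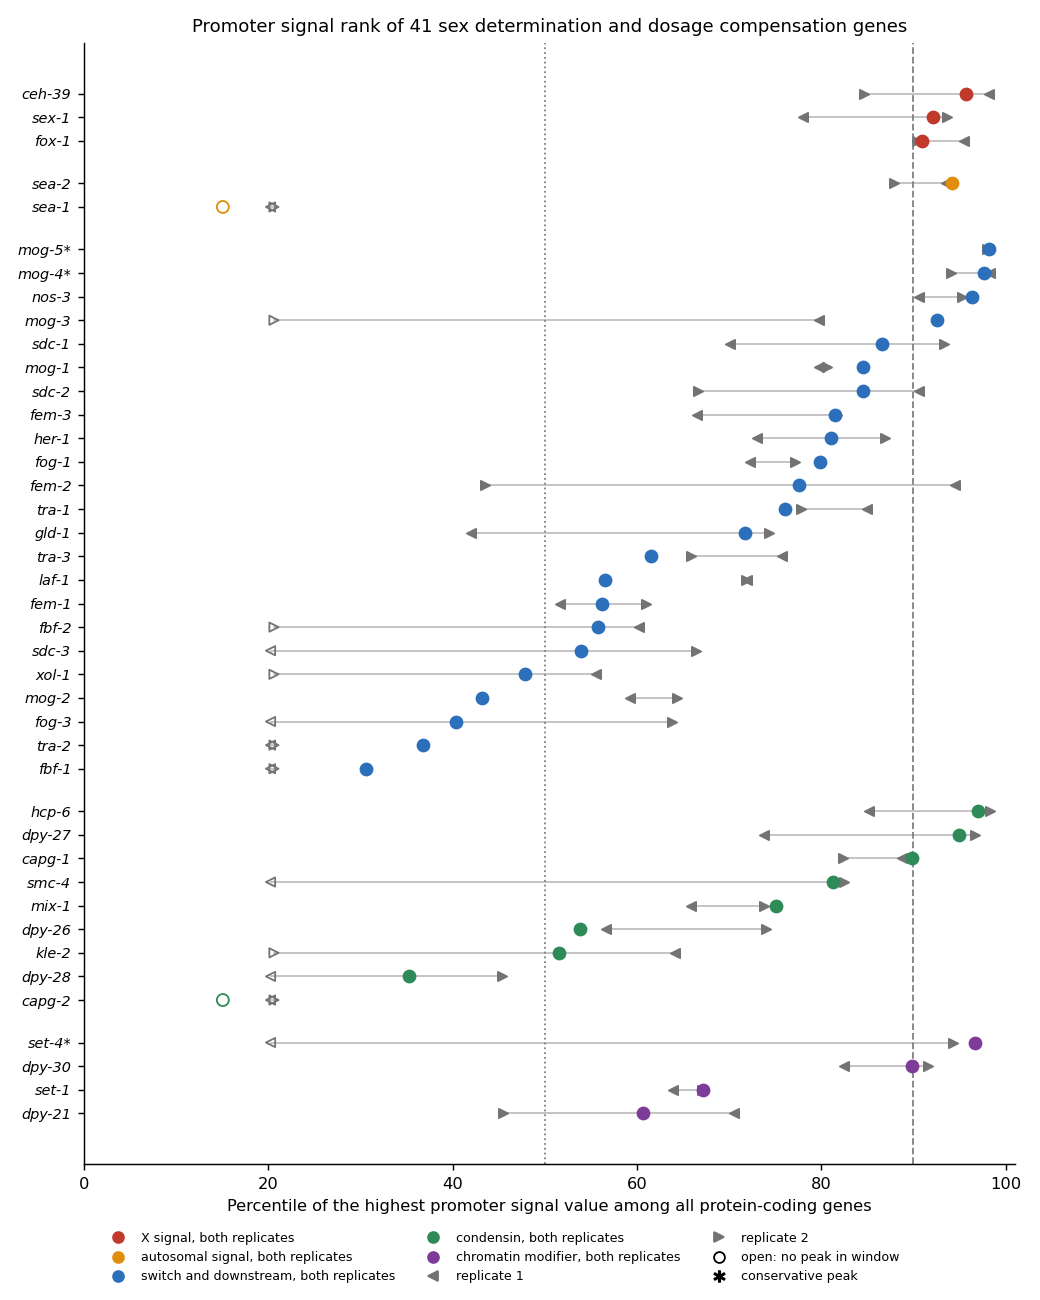
Percentile of the highest signal value in the promoter window of each of the 41 genes among all 19985 protein-coding genes, by class. Filled circles are values from both replicates together, triangles are each replicate's own ranked list, open symbols mark genes without a peak, an asterisk marks a conservative peak, and lines stand at percentiles 50 and 90. By the values from both replicates together all 3 X signal elements lie to the right of percentile 90, and sea-1 and capg-2 have no peak.

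In the series list the 3 X signal elements stood above percentile 90 in the promoter window, although none of their peaks reached the conservative list. Only ceh-39 stayed there under all changes of the window and of the 5′ ends that were run. By single replicate, however, ceh-39 stood at percentile 98.2 in replicate 1 and 84.6 in replicate 2, and sex-1 at 78.0 and 93.7. Of the 3 only fox-1 stood above percentile 90 in both, with its best peaks at different promoters. The gene ceh-39, which encodes a ONECUT homeodomain protein, had a signal value of 72.3 in the series list (rank 859, percentile 95.7), with 53.0 in replicate 1 and 26.8 in replicate 2. Its peak (chrX:1856214-1856533) lay between genes, with the summit 202 bp upstream of the 5′ end, and was in the thresholded list of replicate 1 only. The nuclear hormone receptor gene sex-1 had 60.5 (rank 1566, percentile 92.2), with 24.5 in replicate 1 and 34.8 in replicate 2. The summit (chrX:10205158-10205477) lay in a coding exon, 103 bp downstream of the 5′ end, and the best peak of replicate 1 lay elsewhere in the window. In a window from 500 bp upstream to 100 bp downstream, which leaves that summit out, sex-1 stood at percentile 45.97. The gene fox-1, whose RNA-binding protein acts on xol-1 transcripts, had 57.9 (rank 1821, percentile 90.9), with 39.8 in replicate 1 and 31.1 in replicate 2. Its best series peak (chrX:2455979-2456298) lay in an intron, 83 bp upstream of an internal 5′ end, and again replicate 1 peaked at another of the gene's promoters. The 6 annotated 5′ ends of fox-1 gave it 6112 bp of window, against a median of 1201 bp. With the 5′ end of the gene record alone it stood at percentile 77.6. Among genes with like lengths of window its percentile was 81.0, against 93.1 for sex-1 and 98.02 for ceh-39. Among coding genes of the X chromosome the 3 stood at 90.5 to 95.4, and 10.2% of all X-linked coding genes stood above percentile 90 of the genome.

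The switch gene itself did not stand out. The gene xol-1, which encodes a GHMP kinase family protein, had 1 peak in the window, with a signal value of 24.3 in the series list (rank 10428, percentile 47.8). Replicate 1 had 15.9 there and replicate 2 had no ranked peak. In the series list that pairs the peaks of the replicates, the row at this site held peaks of 15.9 and 9.98. The summit (chrX:8041324-8041643) lay in a coding exon of xol-1, 157 bp downstream of the nearest 5′ end, and in a window from 500 bp upstream to 100 bp downstream xol-1 had no peak. With a window from 2000 bp upstream, which takes in a series peak of 34.2, xol-1 stood at percentile 51.5. The strongest ranked peak within 5 kb of the gene was a conservative one of 127 (chrX:8036631-8036950), 4522 bp upstream and at a tRNA gene.

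The bases at the summits of xol-1 and the X signal elements are given here because xol-1 is the known target of SEA-1, and are read on each gene's own strand, 5′ to 3′. They span 60 bases to each side of the summit in WBcel235, and capitals mark GGTGTGA, the known core of T-box binding sites, or its shorter form GTGTGA, on either strand. The short form is contained in the core.
xol-1 (chrX:8041424-8041544, plus strand): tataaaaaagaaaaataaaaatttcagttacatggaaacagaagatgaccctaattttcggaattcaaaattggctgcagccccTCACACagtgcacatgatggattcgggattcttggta
sex-1 (chrX:10205258-10205378, minus strand): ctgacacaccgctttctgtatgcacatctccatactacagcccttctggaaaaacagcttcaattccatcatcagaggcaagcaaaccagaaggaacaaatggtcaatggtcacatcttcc
ceh-39 (chrX:1856314-1856434, minus strand): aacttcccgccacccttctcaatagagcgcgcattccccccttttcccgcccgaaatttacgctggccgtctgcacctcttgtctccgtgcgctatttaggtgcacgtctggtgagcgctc
fox-1 (chrX:2456079-2456199, minus strand): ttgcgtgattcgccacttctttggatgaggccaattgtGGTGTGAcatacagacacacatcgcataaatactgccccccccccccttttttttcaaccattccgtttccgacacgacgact
Within 100 bp of the summit GGTGTGA occurred in 1 of the 39 genes with a peak, fox-1. It occurred in 1.79% of all coding genes with a peak and in 2.81% of those on X. The short form occurred in 5 of the 39 (xol-1, fox-1, fog-3, mog-2 and fbf-1), beside 7.9% of all coding genes and 11.7% of those on X. A match is a description of the letters and does not mark a site of binding. The ceh-39 stretch was rich in G and C, at 58.7%, against 36.4% for xol-1. Over windows of 100 bp to each side, the median of the 39 was 39.8%, beside 38.8% for all coding genes.

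**Figure D2:**
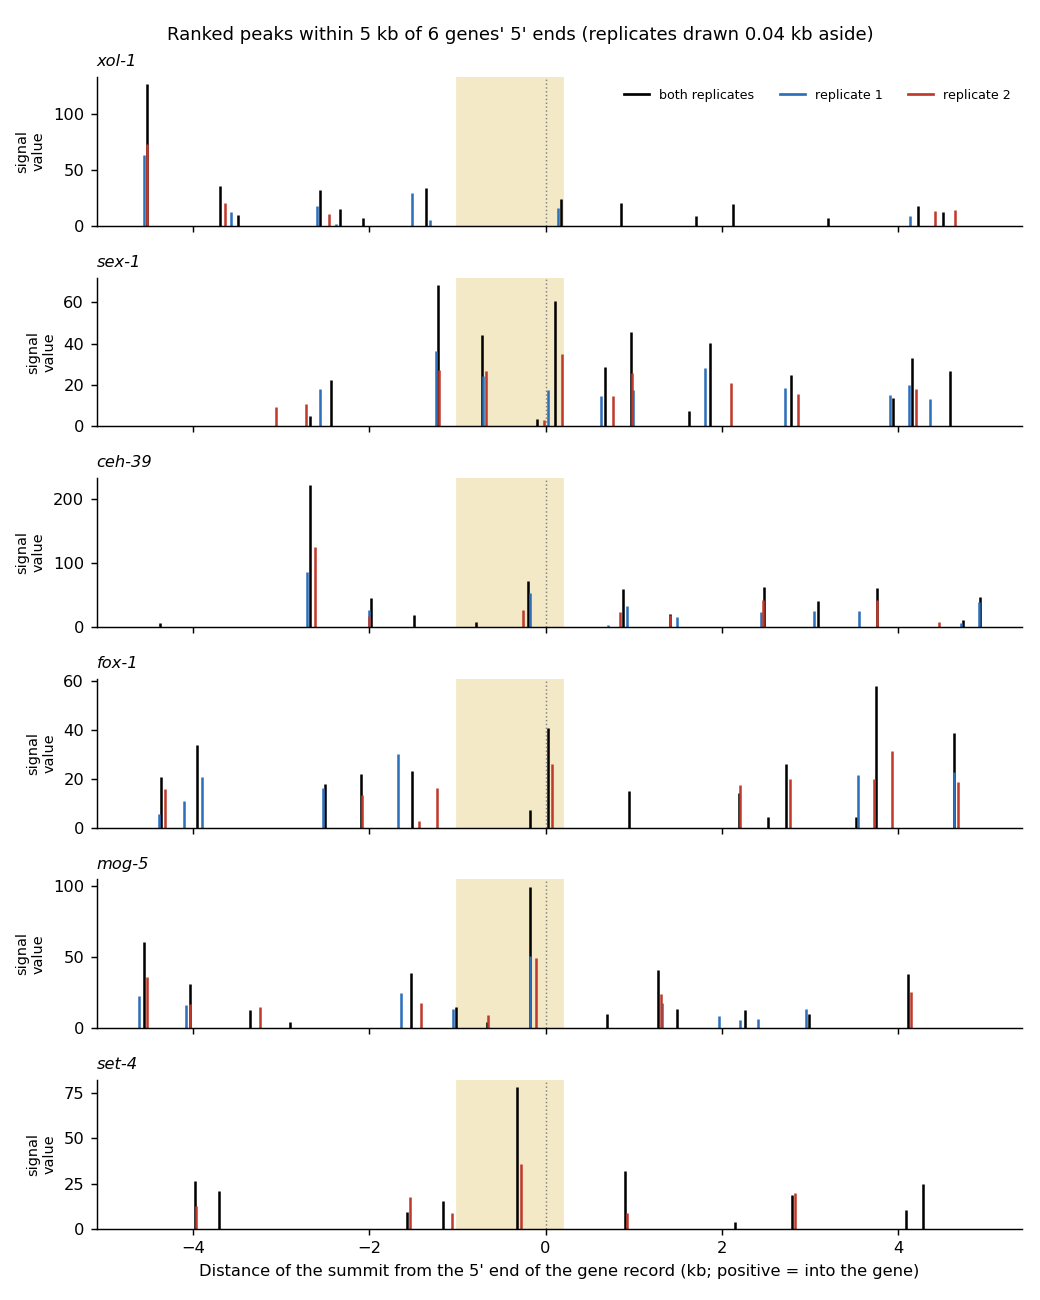
Signal values of ranked peaks against the distance of the summit from the 5′ end of the gene record, for the switch gene xol-1, the X signal elements fox-1, sex-1 and ceh-39, and mog-5 and set-4. Black lines are the series list, blue replicate 1 and red replicate 2, and the shaded band runs from 1000 bp upstream to 200 bp downstream. At mog-5 and set-4 the peak in the band is the highest shown, at xol-1 the peak 4522 bp upstream is, and the best fox-1 peak lies at an internal promoter.

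The autosomal signal elements could not be compared as a pair, because sea-1 had no peak of any ranked list. The gene sea-2, which encodes a zinc finger protein, had 66.2 in the series list (rank 1168, percentile 94.2), with 35.7 in replicate 1 and 29.0 in replicate 2, and the best peaks of both replicates lay at the same site. That peak (chrII:3963307-3963626) lay in an intron, 873 bp upstream of an internal 5′ end, and sea-2 too has 6 annotated 5′ ends. With the 5′ end of the gene record alone sea-2 had no peak and stood at 15.9, so the median of the pair fell from 54.6 to 15.9. Among genes with like lengths of window sea-2 stood at percentile 88.4. In a window from 500 bp upstream to 100 bp downstream it stood at 83.9. The sequence at the sea-2 summit, shown because it is the autosomal counterpart of those above, held neither form of the T-box core.
sea-2 (chrII:3963407-3963527, plus strand): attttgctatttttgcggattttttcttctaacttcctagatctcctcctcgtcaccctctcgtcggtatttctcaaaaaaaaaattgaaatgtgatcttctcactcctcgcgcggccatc
The gene sea-1 lay in a stretch of 53.5 kb of chromosome II between neighbouring summits of the series list (3645746 to 3699295), and in stretches of 53.5 kb in replicate 1 and 56.5 kb in replicate 2. Its nearest summits were 26.2 kb and 25.7 kb away. The median distance between neighbouring summits in the genome was 608 bp. Such stretches were not confined to sea-1: 370 of them reached 20 kb or more, the longest was 141 kb, and that of sea-1 ranked 31. They covered 11.96% of the nuclear genome, touched 13.4% of coding genes and touched 2351 of the 6028 genes without a series peak. Of the 41 genes the condensin II gene capg-2 was the only other in such a stretch, of 37.6 kb on chromosome V. The limit of 20 kb was chosen after the data were seen, the source of the stretches was not tested, and the lack of a peak at sea-1 and capg-2 cannot be read as a lack of binding.

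**Figure D3:**
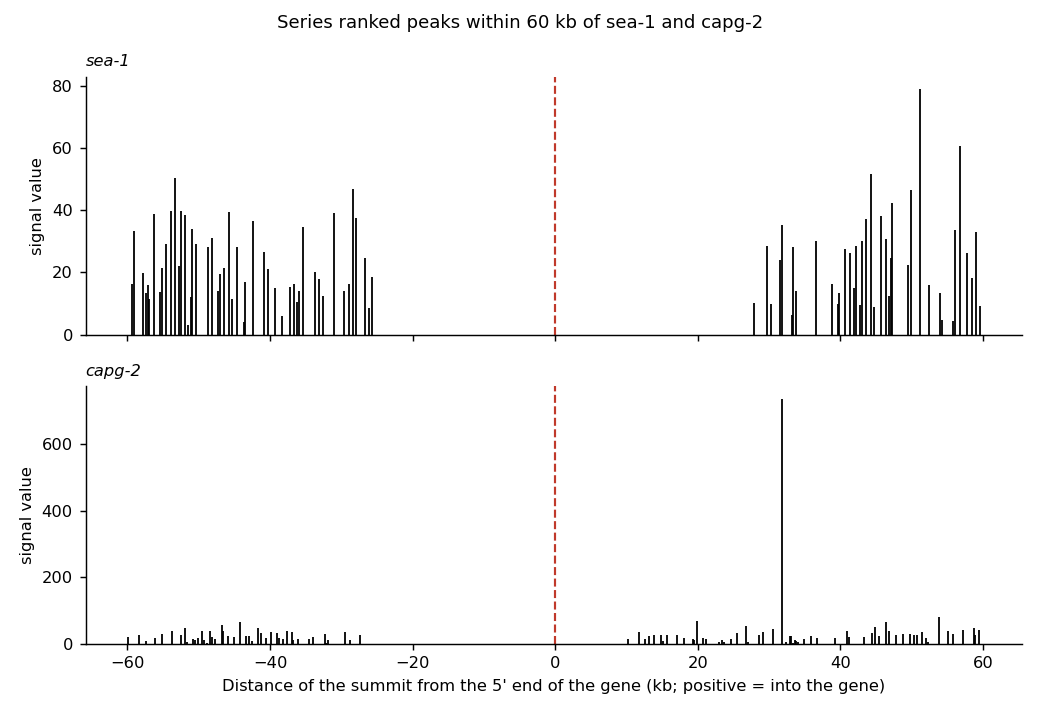
Series ranked peaks within 60 kb of the 5′ ends of sea-1 and capg-2, with the signal value on the vertical axis and the distance in kb on the horizontal axis. Each line is 1 peak, and the dashed line marks the gene. The gene sea-1 stands near the middle of a stretch of 53.5 kb without a peak, and capg-2 nearer the end of one of 37.6 kb.

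Among the sdc genes, which coordinate both processes, those on X ranked above the one on an autosome in the series list. The gene sdc-2, whose hermaphrodite-specific protein brings the complex to X, had 48.7 (percentile 84.5), with 32.1 in replicate 1 and 19.2 in replicate 2. The zinc finger gene sdc-1 had 51.1 (percentile 86.6), with 21.2 and 34.4. The zinc finger gene sdc-3, on chromosome V, had 28.0 (percentile 53.9), with no ranked peak in replicate 1 and 19.1 in replicate 2. In replicate 2 sdc-2 and sdc-3 thus lay close together, at percentiles 66.7 and 66.4. Among genes with like lengths of window sdc-3 stood at 70.4, against 87.4 for sdc-2 and 85.7 for sdc-1. The replicates of sdc-1 and sdc-2 lay in opposite order, so the pair cannot be ranked against each other. The 6 members on X, which include the 3 X signal elements, had a median percentile of 88.7 and the 35 on autosomes 75.1. All coding genes on X had 49.3 and those on autosomes 50.2.

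The genes of the somatic pathway except tra-2 lay in the middle to upper range of the series list, and none had a thresholded peak. The ligand gene her-1 had 45.5 (percentile 81.1), with 22.4 in replicate 1 and 28.2 in replicate 2, at a summit in its 5′ UTR. Its receptor gene tra-2 had 15.3 (percentile 36.8), with no ranked peak in the window in either replicate, and a paired row of 15.2 and 8.56. In the series list the ligand thus stood above the middle of all genes and its receptor below. In the window from 500 bp upstream to 100 bp downstream tra-2 stood at 54.3 and her-1 at 87.9. Of all coding genes 54.6% had a series peak in that window, beside 69.8% in the main one. The calpain gene tra-3, whose product cuts TRA-2, had 32.4 (percentile 61.5), with 23.5 in replicate 1 and 18.95 in replicate 2. The latter lay at another site in the window, and the paired row at the series site held 23.5 and 11.3. Among the fem genes, whose proteins act together against TRA-1, fem-3 had 45.8 (percentile 81.5), with 19.9 and 25.1. The phosphatase gene fem-2 had 42.6 (percentile 77.6), and its replicates lay far apart at 37.4 and 8.42, the latter at another site in the window. The ankyrin-repeat gene fem-1 had 29.4 (percentile 56.3), with 14.2 and 17.3, the latter also at another site in the window. The gene tra-1, the GLI-family transcription factor at the end of the pathway, had 41.5 (percentile 76.1), with 27.9 and 23.4.

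In the series list the top 2 of the 41 genes, mog-5 and mog-4, belong to the germline sperm and oocyte decision. In replicate 2 alone hcp-6, with 52.6, stood above mog-5. The gene mog-5, a DEAH-box helicase needed to switch from sperm to oocytes, had 99.7 (rank 364, percentile 98.2), with 51.0 in replicate 1 and 49.5 in replicate 2. Its summit lay 182 bp upstream of the 5′ end (chrII:5399196-5399515), between genes, and also in the window of the F-box gene fbxl-3. The helicase gene mog-4 had 89.2 (rank 465, percentile 97.7), with 54.2 and 35.4, and its summit lay 267 bp upstream (chrII:14561706-14562025). Both replicates placed their best peak at these 2 sites, and both genes stood above percentile 94 in each replicate. The Nanos-family gene nos-3 had 76.3 (rank 726, percentile 96.4), with 32.1 in replicate 1 and 37.7 in replicate 2. That peak (chrII:9746740-9747059) lay in a coding exon of nos-3, 185 bp downstream of a 5′ end and in the window of Y53C12B.1 too, and was in the second thresholded list but not in the conservative one.

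The other mog genes ranked lower. The gene mog-3 had 61.5 (percentile 92.5), with 25.3 in replicate 1 and no ranked peak in replicate 2, but the row that pairs the replicates' peaks held 25.3 and 33.3. The helicase gene mog-1 had 48.8 (percentile 84.5), and mog-2, for a U2 snRNP protein, had 21.1 (percentile 43.2). The 3 mog genes of the DEAH-box helicase family therefore spanned signal values from 48.8 to 99.7. Of the genes that specify sperm, fog-1 had 44.5 (percentile 79.9) and fog-3 had 18.8 (percentile 40.4), and fog-3 had no ranked peak in replicate 1. Among translational repressors gld-1 had 38.5 (percentile 71.7), with replicate values of 6.85 and 21.9, and the close paralogs fbf-2 and fbf-1 had 29.1 and 4.36. In replicate 1 fbf-2 had 17.7 and in replicate 2 no ranked peak, and fbf-1 had no ranked peak in the window in either. Whether reads shared between these paralogs were placed at either was not tested. The DEAD-box helicase gene laf-1 had 29.6 (percentile 56.5), and its summit lay in an intron of the neighbouring gene cox-6B. Neither laf-1 nor the condensin gene dpy-28 had a peak in the window in the other series list.

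Among the condensin genes the highest series peaks were at 1 subunit of condensin II and at the subunit that is special to dosage compensation. The HEAT-repeat gene hcp-6, of condensin II, had 81.3 (rank 594, percentile 97.0), with 28.1 in replicate 1 and 52.6 in replicate 2. Its summit lay 124 bp upstream of a 5′ end, in the window of let-630 as well, and the peak was in the second thresholded list only. The gene dpy-27, the SMC4 variant that sets the dosage compensation condensin apart, had 68.9 (rank 1007, percentile 95.0), with 22.7 at another site of the window in replicate 1 and 41.9 in replicate 2. Its canonical counterpart smc-4 had 45.7 (percentile 81.2), with no ranked peak in replicate 1 and 25.6 in replicate 2, and a paired row of 11.2 and 25.6. Its peak was also in the window of F35G12.7, and when a summit counted only for the nearest 5′ end smc-4 had no peak. Replicate 2 thus had the higher value at all 3 of these genes. In replicate 1 the highest value of the condensin genes was 30.6 at capg-1, which had 25.5 in replicate 2. With a window from 500 bp upstream to 100 bp downstream capg-1 stood at percentile 93.2 and dpy-27 at 87.2. The subunits shared by condensin I and the dosage compensation condensin had 56.1 at capg-1 (percentile 89.8), 27.9 at the kleisin gene dpy-26 (percentile 53.9) and 13.6 at dpy-28 (percentile 35.2). The SMC2 gene mix-1, common to all condensins, had 40.9 (percentile 75.1), and kle-2, the kleisin of condensin II, had 26.5 (percentile 51.6). The 5 condensin genes of the dosage compensation complex (dpy-26, dpy-27, dpy-28, mix-1 and capg-1) had a median percentile of 75.1, the same as all 9.

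Of the chromatin modifier genes, set-4 had a conservative peak. Its product makes the di- and trimethylated forms of histone H4 lysine 20. It had 78.4 (rank 674, percentile 96.6), with 35.7 in replicate 2 and no ranked peak in replicate 1. The row that pairs the replicates' peaks at this site (chrII:6331509-6331828) held 44.1 and 35.7, so the site had a peak in each of the compared sets. The summit lay 328 bp upstream of the 5′ end, between genes. The gene dpy-30, a subunit of both the dosage compensation complex and the histone H3 lysine 4 methyltransferase complex, had 56.3 (percentile 89.9), with 26.6 and 32.3. The monomethyltransferase gene set-1 had 35.6 (percentile 67.2, or 98.1 with a window from 2000 bp upstream), with 19.1 and 19.4. The latter lay at another site in the window, and the paired row at the series site held 19.1 and 14.7. The gene dpy-21, for the demethylase of the dosage compensation complex, had 32.0 (percentile 60.7), with 21.4 and 10.3.

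Only mog-5, mog-4 and set-4 had a conservative peak in the promoter window, 3 of 41 beside 3.28% of all coding genes. Any of the 4 thresholded lists held a peak of 6 genes (these 3, nos-3, hcp-6 and ceh-39), beside 3.89% of all coding genes. The thresholded list of replicate 1 alone held 2 of the 41 (mog-4 and ceh-39), beside 1.54%, and that of replicate 2 alone held 0, beside 1.57%. None of the 3 conservative peaks overlapped thresholded peaks of both replicates. Of all coding genes 656 had a conservative peak in the window. In 202 of these, 1.01% of all coding genes, a conservative peak had such an overlap. The 3 sites had different bases at the summit, given here because they belong to the only conservative peaks of the set. None held either form of the T-box core, and so no base is in capitals.
mog-5 (chrII:5399296-5399416, plus strand): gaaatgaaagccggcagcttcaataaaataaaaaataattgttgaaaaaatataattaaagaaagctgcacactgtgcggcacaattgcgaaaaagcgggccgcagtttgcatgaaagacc
mog-4 (chrII:14561806-14561926, minus strand): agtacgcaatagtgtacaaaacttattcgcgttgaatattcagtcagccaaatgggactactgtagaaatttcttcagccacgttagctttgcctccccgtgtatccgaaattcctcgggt
set-4 (chrII:6331609-6331729, minus strand): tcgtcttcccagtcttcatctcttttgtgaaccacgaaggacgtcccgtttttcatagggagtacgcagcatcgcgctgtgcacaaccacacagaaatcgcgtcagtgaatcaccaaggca
All 3 are upstream of their gene and on chromosome II, and the share of chromosome II among all conservative peaks was not counted. In the whole set the summit lay upstream of the 5′ end at 32 of the 39 genes with a peak, beside 81.2% of all coding genes, and within 500 bp of it at 31, beside 63.5%. Of the 39 summits 23 were intergenic, 6 intronic, 6 in coding exons, 3 in 5′ UTRs and 1 in a 3′ UTR. This split was not made over all coding genes, so it does not set the 39 apart. No summit of the 39 had a small structured RNA gene (tRNA, snRNA or snoRNA) closer than 100 bp, beside 1.15% of all coding genes with a peak. The peak also lay in the window of another coding gene at 9 of the 39, beside 22.7%.

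Peaks near the genes but outside their promoter windows ranged from weak to strong. At 31 of the 41 the highest series peak within 5 kb of the gene lay outside the window and was stronger than any peak in it, beside 78.6% of all coding genes, and it ran from 17.4 at fbf-1 to 297 at dpy-28. At 13 of the 41 that highest peak was a conservative one, beside 13.9% of all coding genes. The span searched grows with the gene, and the 41 had a median length of 5.02 kb, beside 2.03 kb for all coding genes, so the shares cannot be compared directly. For mog-5, mog-4 and set-4 the highest peak was the conservative one in the window.

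Set side by side, the X signal elements had a median percentile of 92.2 (3 genes), the chromatin modifiers 78.5 (4 genes), the switch and downstream genes 76.1 (23 genes) and the condensin genes 75.1 (9 genes). Downstream genes spanned percentiles 30.6 to 98.2. Condensin genes with a peak spanned 35.2 to 97.0, and capg-2, without a peak, shared the lowest percentile of 15.1. Single genes of both classes thus stood above and below all X signal elements. In replicate 1 the X signal elements had a median of 95.5 and the downstream genes 72.0, and in replicate 2 they had 90.4 and 66.7. The difference between classes was not tested. Across the 28 genes with a peak in both replicates the values had Spearman's rho = 0.48 and Pearson's r = 0.29 on the log10 scale, beside 0.43 and 0.51 over 9048 coding genes. These describe genes within 2 libraries of the same strain and protocol. The best peaks of both replicates lay within 150 bp of the series summit at 17 of the 41 genes, beside 22.7% of all coding genes.

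**Figure D4:**
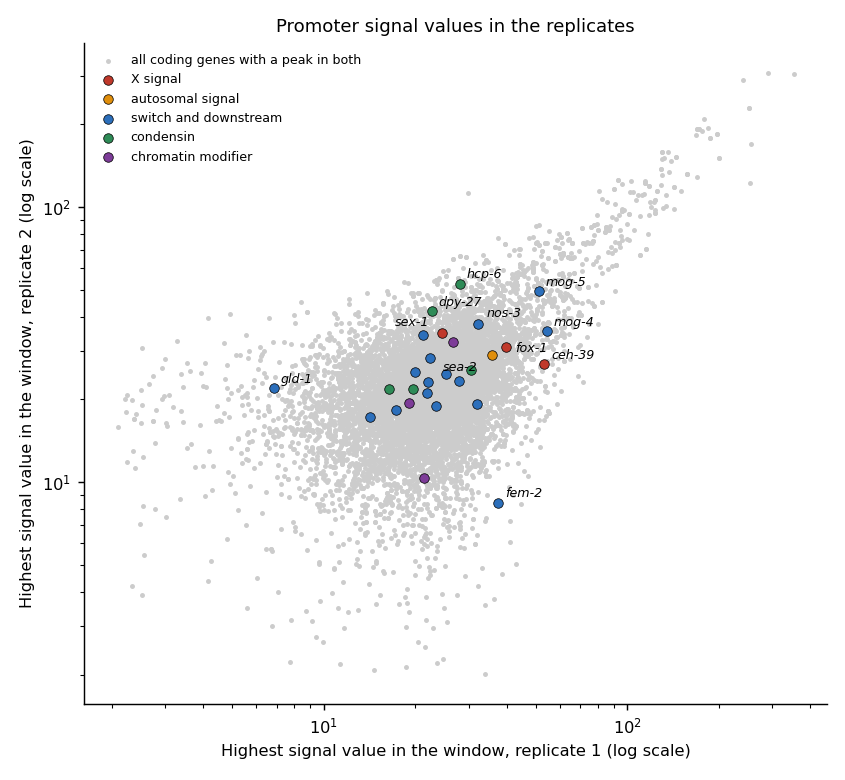
Highest signal value in the promoter window in replicate 1 (horizontal) and replicate 2 (vertical), both on log scales. Grey points are all coding genes with a peak in both replicates and coloured points the 28 of the 41 genes with one. The genes mog-5 and mog-4 lie toward the upper right of the set, while fem-2 and gld-1 lie far from the diagonal.

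Other genes of these pathways were read from a list of 47 names, of which 43 matched the annotation. Of the 43, 8 had a conservative peak in the promoter window (3.28% of all coding genes), and 13 stood above percentile 90 (10% of all genes). Both counts include htz-1 and wapl-1, which share the same peak. Since atx-2 had been seen to be strongly bound before the list was written, these counts are not independent of the data. Among 21 other sex determination genes, the ataxin-2 homolog atx-2, which acts in the germ line, had 460 (rank 4), with 252 in replicate 1 and 228 in replicate 2, at a peak also in the window of ecps-1. The RNA-binding protein gene sup-26, a regulator of tra-2, had 163, with 89.1 and 67.8. At both genes the replicates lay within 1.5 times of each other. Above percentile 90 without a conservative peak were mep-1 with 74.6, the tra-1 cofactor gene tra-4 with 72.1 and the cullin gene cul-2 with 56.9, whose peak dyf-2 shares.

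The list of other pathway genes was written with earlier results of these data known, so the counts here are not independent of them. Among 11 other chromatin genes 4 had conservative peaks, beside 3.28% of all coding genes. These were the histone deacetylase gene hda-1 with 99.3 (shared with ril-1), the histone H3 methyltransferase genes set-25 with 98.4 and met-1 with 81.5, and the H2A.Z gene htz-1 with 78.6, whose peak it shares with the cohesin release factor gene wapl-1. The H3 lysine 4 methyltransferase gene set-2, with 93.3, and cfp-1, for another subunit of its complex, with 60.6, stood above percentile 90 but outside the conservative list. Both encode partners of DPY-30. Among 11 cohesin and related SMC genes the loader gene scc-2 had 107, with 69.1 in replicate 1 and 41.6 in replicate 2, and was conservative, as was the peak shared by wapl-1. The 11 had a median percentile of 77.5, beside 75.1 for the 9 condensin genes.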

How the data were processed

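The authors deposited peak lists on assembly ce11, per the labels. By the readme texts deposited beside the lists, 4 lists of the whole series were made from both replicates and 4 from a single replicate each. Not given in the sources used here: aligner, peak caller and depth. Peak signal values are those the authors deposited, with no normalization stated, and were compared only within a list. The deposited score read here is −log10 of the irreproducible discovery rate; rows of the ranked lists that are in the thresholded lists have 2 or more. Of the 2 series ranked lists, the one that set the ranks holds 103831 peaks and the other 104066. In the other, the compared peaks had the same start and end as one in the ranked list of replicate 1 in 63.5% of rows and of replicate 2 in 61.8%, against 0.0% and 0.000963% in the one that set the ranks, whose compared peaks are therefore not those of the replicates' lists. The other list's paired values were used without naming the replicate.

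Summits were set against the Ensembl release 115 annotation of WBcel235, whose chromosomes hold every peak, with Python 3.11.15 and pandas 2.3.3. Each gene took the highest signal value in its promoter window, and ties shared the mean rank. On simulated peaks, 200 of 200 planted peaks, all stronger than the simulated background, were recovered over 19985 genes. The value was exact at 198, and 39 other genes whose windows held a planted summit took its value. This checks the scoring and not the handling of weak peaks. All 41 members were named, with genes sharing the peak of a conservative member or of one above percentile 90, and other pathway genes that were conservative or above percentile 90. The members and lists were chosen with earlier results of these data known. Class medians, counts and single genes were recomputed with other windows, 5′ ends, overlaps, lists and backgrounds, and without each replicate. Genome sequence came from RefSeq's WBcel235.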

Additional observations from a re-analysis of the deposited data

How the results depend on the processing

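Counts of genes with a series peak stayed within 1.5 times of 39 under all alternatives run. Medians are percentiles, and those that moved by more than the spread between the replicates are given here. With a window from 500 bp upstream to 100 bp downstream the median of all 41 and of the downstream genes was 82.1 each. With 2000 bp upstream it was 72.1 for all, 51.45 for the autosomal pair, 67.2 for downstream, 64.3 for condensin and 90.3 for chromatin modifier genes. With the 5′ end of the gene record alone the autosomal pair stood at 15.9. Counting peaks that overlap the window gave 73.9 for all and 72.25 for downstream genes, and counting a summit only for the nearest 5′ end gave 58.4 for condensin genes. Against genes of like window length all stood at 73.7, the autosomal pair at 51.7 and downstream genes at 71.7. Within the chromosome, all stood at 73.4 and downstream genes at 67.7. Without genes in stretches of 20 kb or more free of summits, chosen after seeing the data, the autosomal pair, then sea-2 alone, stood at 93.4. With conservative peaks that overlap both replicates' thresholded lists the count was 0, by 50% of the shorter peak and by 1 bp, beside 1.01% of all coding genes either way.

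Without replicate 1 or without replicate 2, the median ran from 70.55 to 74.03 for all, from 90.43 to 95.5 for X signal, from 54.26 to 56.9 for the autosomal pair, from 66.65 to 72.0 for downstream, from 64.1 to 74.03 for condensin and from 67.23 to 79.32 for chromatin modifier genes. The thresholded count ran from 0 to 2 and the ranked count from 32 to 33. The X signal median stayed within the spread between replicates under all alternatives run, but sex-1 fell to 45.97 in the 500 bp window and fox-1 to 77.63 with the 5′ end of the gene record alone. Under the alternatives that keep both replicates, 306 of 408 values of single genes moved by less than the gene's own spread between replicates. That spread ran from 0.0318 percentile points at mog-5 to 52.3 at set-4. A gene whose replicates lay far apart thus counted as unmoved more easily, and the count does not measure how stable the values are. Without replicate 1, 18 of the 41 genes moved by more than their spread, and without replicate 2, 25. The cause of these shifts was not tested. The depth is unknown, and so is its effect on which genes lack a ranked peak. No paired analysis was possible because there is 1 group.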

Other observations

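Several of the highest series peaks within 5 kb of a gene of the set lay outside its promoter window. The condensin gene mix-1 had a peak of 232 in an intron at the snoRNA gene M106.6, 16011 bp downstream of its 5′ end. A peak of 221 at a tRNA gene lay 2669 bp upstream of ceh-39, and one of 98.5 at a tRNA gene 2676 bp upstream of mog-3. The peak of 297 that lay 3892 bp upstream of dpy-28 was in the windows of K01G5.10 and tasp-1, and that of 184 near laf-1 was in the window of swsn-3. A peak of 111 lay 1493 bp upstream of set-1 in the window of the histone demethylase gene jhdm-1, and a peak of 106 lay 2209 bp upstream of dpy-21 in that of Y59A8B.24. The peak of 86.9 upstream of tra-3 and that of 80.7 upstream of tra-2 lay at noncoding exons, 2911 bp and 2815 bp from the 5′ ends.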
